A study of Homo sapiens with 10 samples.

Results

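Chromosome 5 carried 217 of the 3227 deposited ANRIL-associated intervals (6.72%), and 51.2% of them lay on the short arm, which makes up 26.5% of its length. The members are every row of the deposited hg19 peak list that names chromosome 5, with no choice among those rows by any measured value. The chromosome itself was chosen with earlier results of these data known. The list comes from ChIRP-seq (chromatin isolation by RNA purification), in which biotinylated antisense oligos pull an RNA down from sonicated chromatin and the DNA recovered with it is sequenced. All samples were HEK293 cells, an established human embryonic kidney line, grown in high-glucose DMEM with fetal bovine serum, antibiotics and L-glutamine, and the labels name no other treatment. Per the labels, ANRIL was captured in 4 libraries, from 2 replicates that were each split between an even and an odd oligo pool. LacZ, a bacterial sequence absent from human cells, was targeted in 4 control libraries of the same layout, and 2 libraries were of input chromatin. Reads were paired-end and 43 bp long, and the stated depth is 45 M reads per library. The authors merged the oligo pools, called ANRIL against LacZ and intersected the replicates, so each interval carries 1 fold, 1 score and 1 q-value, with no value per replicate and none for the LacZ or input libraries. Which replicate's call, or which pool of reads, these values come from is not stated, so each fold, score and q-value below may be that of a single replicate. The labels do not say whether the replicates were separate cultures. The list holds no expression values, so the cell line label was not checked against markers.

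ANRIL (also CDKN2B-AS1) is a long non-coding RNA transcribed from band 9p21, antisense to the cell cycle inhibitor gene CDKN2B. It is known to bind Polycomb proteins, which place repressive marks on histones, and to act on its neighbour genes in cis, while other work concerns targets on other chromosomes, in trans. Chromosome 5 holds no part of the ANRIL gene, so every interval described here is away from the place where the RNA is made. Its arms are unequal: a short arm with few genes for its length, known for TERT, the catalytic subunit of telomerase, and a long arm that carries the clustered protocadherin genes, a group of cytokine genes and the tumour suppressor APC. Genes and sequences were not placed on the intervals here, because the sequence tables at hand are of another build than the peaks.

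With every interval and all chromosomes counted, chromosome 5 as a whole stood slightly above its share of genome length. It held 1.15 times the number of intervals that its length would give (exact 95% interval 1.01 to 1.31), with an adjusted p of 0.0388 (exact binomial test, two-sided, Benjamini-Hochberg over 24 chromosomes). Of those chromosomes, 29.2% were above their length share by the same rule and 91.7% departed from it in either direction, so a departure was the usual case in this list. Chromosome Y counts toward the genome length, yet it held 2 intervals where its length would give 61.9. With chromosome Y left out the excess was not past the threshold (1.13 times, exact binomial test, adjusted p = 0.0747). Nor was it with intervals within 10 kb joined (1.14 times, exact binomial test, adjusted p = 0.0552). Among scores of 25 or more the ratio was 0.980 (exact binomial test, adjusted p = 0.988). The test treats intervals as independent and covers counting only, although the 217 intervals of chromosome 5 carry 213 names. Because the chromosome was chosen with earlier results known, its p is descriptive.

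The density of the whole chromosome combined a high value on the short arm with a low one on the long arm. The split at 48 Mb left 111 intervals on the short arm and 106 on the long arm, although the long arm is 133 Mb long. The short arm therefore had 2.31 intervals per Mb and the long arm 0.798 per Mb. The ratio of the densities was 2.90, with an exact 95% interval of 2.20 to 3.82 that covers the counting of intervals only. No p is given for this ratio, because the arms were set apart with earlier results of the list known and intervals are not replicates. In bases the contrast was wider: intervals covered 51.5 kb of the short arm and 33.1 kb of the long arm, or 1074 against 249 bases per Mb, a ratio of 4.31.

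In bins of 5 Mb the count dropped within the bin that holds the arm boundary. The first 9 bins, from the start of the chromosome to 45 Mb, held 9, 9, 18, 13, 9, 10, 14, 18 and 10 intervals in order of position. Their median was 10, and 2 separate bins shared the highest count of 18, at 10 to 15 Mb and at 35 to 40 Mb. The bin from 45 to 50 Mb, which spans the boundary, held a single interval. On the long arm the 26 full bins held from 0 to 7 intervals with a median of 4, so each of the first 9 bins held more than any full bin of the long arm. That full separation depends on the bins: shifted by 2500 kb, 6 of 9 short-arm bins exceeded every long-arm bin (lowest short-arm count 5, highest long-arm count 7), and with bins of 2 Mb 14 of 24 did, with some short-arm bins at 0. The densest long-arm bins, with 7 each, were those of 130 to 135, 135 to 140 and 145 to 150 Mb. The bins from 85 to 90 Mb and from 175 to 180 Mb were empty. The last stretch of the chromosome, under 1 Mb long and beyond 180 Mb, held 3 intervals. That is 3.28 per Mb, within the range of 1.8 to 3.6 per Mb of the first 9 bins, though it rests on few intervals.

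**Figure D1:**
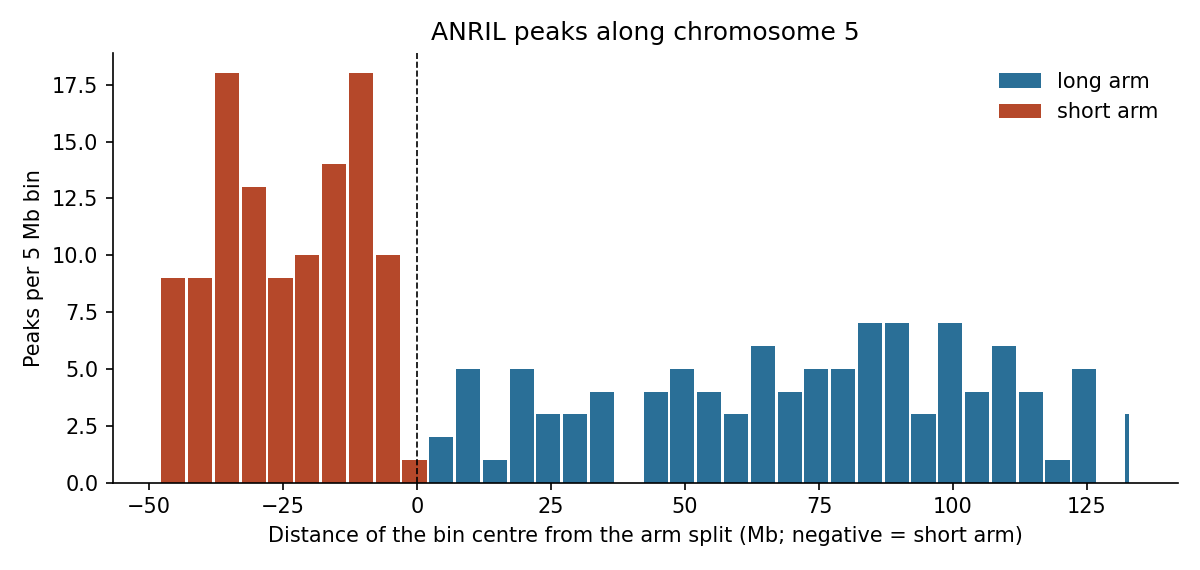
Number of ANRIL peak intervals (vertical axis) in each 5 Mb bin of chromosome 5 by the distance of the bin centre from the 48 Mb split in Mb (horizontal axis); bars are coloured by arm, the dashed line marks the split, and the narrow last bar is a partial bin. The first 9 bars hold 9 to 18 intervals and the full bins of the long arm 0 to 7.

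Across the whole list, 18.4% of the 609 full bins of 5 Mb held 9 or more intervals. Outside chromosome 5, with chromosomes X and Y included, the median bin held 3, and 103 of 573 bins reached 9. The limit of 9 is the lowest count among the first 9 bins of chromosome 5, so all of them reach it by construction. A minority of bins elsewhere reached it. With only scores at or above the list's median of 21 counted, 3 of the 10 short-arm bins exceeded every full long-arm bin.

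Neighbouring peaks were closer on the short arm along most of the range of distances. With the pieces of one called peak joined, the median gap to the next peak was 297 kb on the short arm (106 gaps, interquartile range 117 to 570 kb) and 880 kb on the long arm (105 gaps, 384 to 1726 kb). Gaps of at most 100 kb made up 24.5% of the short-arm gaps and 11.4% of the long-arm gaps. Gaps over 1000 kb made up 11.3% and 41.0%. The closest pair of the short arm was 2.76 kb apart and that of the long arm 2.93 kb, which are nearly equal.

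**Figure D2:**
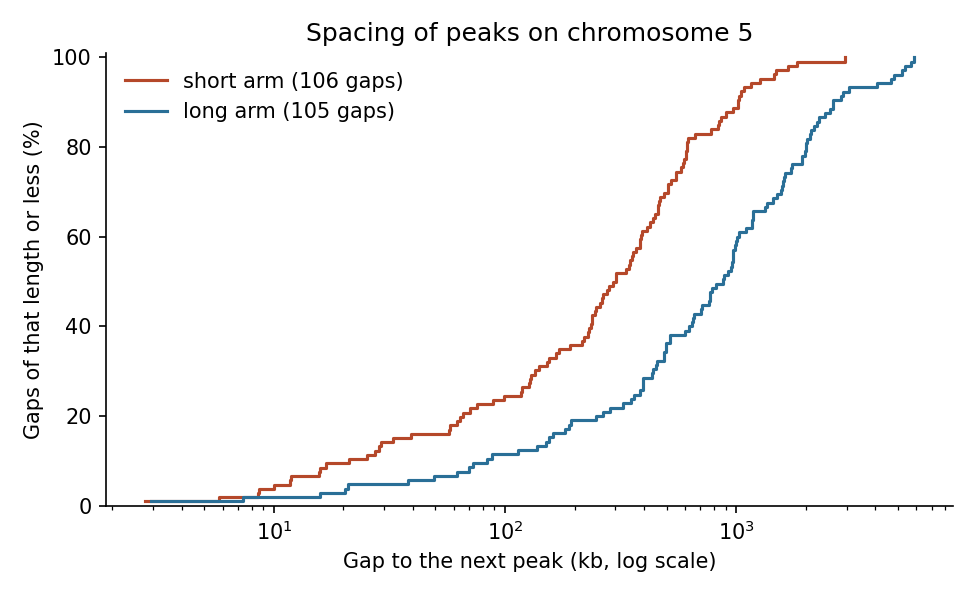
Cumulative share of gaps between neighbouring named peaks (vertical axis, %) by gap length (horizontal axis, kb, log scale), 1 line per arm. The short-arm line crosses 50% at a gap of 297 kb and the long-arm line at 880 kb.

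Every gap over 5000 kb but the one across the arm boundary lay on the long arm, which had 4 of them. The longest ran from 174274600 to 180152532 and spanned 5878 kb, ending near the tip of the long arm. The next ran from 67598674 to 73325702 (5727 kb) and from 84963924 to 90314416 (5350 kb). The gap across the boundary, from 45181682 to 50326631, was 5145 kb long and includes the centromere. The longest gap of the short arm, from 23242952 to 26199757, was 2957 kb.

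These gaps were empty in the filtered list but not among the peaks first called. Numbers within peak names rose in genome order along the whole chromosome, so the numbers skipped between neighbouring intervals count the called peaks that were not retained, if every called peak took the next number. The list does not say from which replicate's calls the names come. In the longest gap of the short arm 147 called peaks had been dropped, or 49.7 per Mb. In the next gaps of that arm, of 1838 and 1680 kb, the dropped peaks numbered 98 and 80, or 53.3 and 47.6 per Mb. In the 3 longest gaps of the long arm they numbered 68, 71 and 103, or 11.6, 12.4 and 19.3 per Mb. Called peaks were thus denser in the 3 longest gaps of the short arm than in the 3 longest of the long arm, although no interval was retained in any of them.

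The arm contrast was already present in the peaks called before filtering. The short arm had at least 2162 and at most 2237 called peaks, the long arm at least 2599 and at most 2682. That is 45.0 against 19.6 per Mb at the lower limits, a ratio of 2.30 (2.23 to 2.38 over the combinations of limits). At the lower limits, 4.95 per 100 called peaks were retained on the short arm (107 names, exact 95% interval 4.07 to 5.95). On the long arm it was 4.08 per 100 (106 names, 3.35 to 4.91). At the upper limits the shares were 4.78 and 3.95 per 100. The exact intervals, which leave out the spread between the limits, overlap. That alone cannot decide whether the retained share differed between the arms, and that difference was not tested. By 5 Mb bin, the first 9 bins had lower limits of 114 to 260 called peaks and upper limits of 227 to 369. The 22 long-arm bins with 3 or more intervals, the partial last bin included, had lower limits of 8 to 120 and upper limits of 90 to 285. The ranges of both limits thus overlapped. A lower limit rests on the outermost retained names of a bin and is low where few were retained.

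Local groups were small and lay on the short arm. Runs of 3 or more differently named peaks, with no gap over 100 kb, numbered 5, with 16 names in all and none of them on the long arm. The longest by count was chr5:14331102-14411200, with 4 names in 80.1 kb. Its first peak was retained as a pair of pieces, which share the fold of 3.82 and the score of 29 of their call. The second, at chr5:14341396-14341984, reached a score of 44 at a fold of 4.28, the seventh highest score of the chromosome. The third, at chr5:14404127-14404369, scored 33 at a fold of 4.07, and the fourth, at chr5:14410162-14411200, scored 22 at a fold of 3.47. All these folds were above the short-arm median of 3.45. Peak numbers ran from 29260 to 29266 in this run, so 4 of 7 called peaks were retained.

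The other runs had 3 names each. At chr5:38420412-38555443 the folds were 4.22, 2.998 and 3.77 and the scores 39, 16 and 29, so the strongest and the weakest peak of this run were neighbours. At chr5:37155972-37188557, the tightest at 32.6 kb, the folds were 3.75, 3.32 and 3.66. At chr5:19591065-19684008 they were 3.36, 3.504 and 3.296, with scores of 21, 20 and 20. The run nearest the tip, chr5:316483-432753, had folds of 3.33, 3.49 and 3.14 and included a second split peak. Over the 5 runs, 16 of 30 called peaks were retained (53.3 per 100), a share that is high by construction, since runs were picked for retained peaks that lie close. Groups of 2 or more lay on both arms, with 20 on the short arm and 12 on the long arm, which is the longer (133 against 48 Mb). They held 46 of 107 short-arm names and 24 of 106 long-arm names. With the 5 runs of chromosome 5 included, the whole list held 185 runs of 3 or more names on 17 chromosomes, with up to 11 names. Of the 185 runs, 87 were on chromosome X.

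Intervals of the short arm were wider. The median width was 395 bp on the short arm (interquartile range 278 to 576, exact 95% interval of the median 341 to 484) and 285 bp on the long arm (217 to 370, interval 257 to 310). Intervals over 500 bp made up 36.0% of the short arm (40 of 111) and 10.4% of the long arm (11 of 106). Those under 200 bp made up 9.01% and 17.9%. The order held at every score level compared: median widths were 329 and 262 bp at scores of 16 to 18, 449 and 266 bp at 19 to 24, and 530 and 312 bp at 25 or more. The spread between the lowest and highest score class was wider on the short arm. By 5 Mb bin, median widths ran from 335 to 536 bp over the first 9 bins. They ran from 216 to 404 bp over the 22 long-arm bins with 3 or more intervals, the partial last bin included, so the ranges overlapped.

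The widest interval, chr5:12187468-12188945, spanned 1478 bp at a fold of 3.44 and a score of 21. It was followed by chr5:9057953-9059333 (1381 bp, fold 3.68), chr5:29994970-29996304 (1335 bp, fold 3.18) and chr5:13943834-13944958 (1125 bp, fold 3.45), all on the short arm. The widest of the long arm was chr5:145842898-145843981 (1084 bp, fold 3.18, score 16). None of these wide intervals had a score above 25, so width and strength did not go together at the top.

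On chromosome 5, 4 called peaks were retained as 2 pieces each under 1 name, out of 18 such names in the whole list, and these 4 all lay on the short arm. The list does not say whether the intersection or the blacklist step cut them. The pieces at chr5:14331102-14331751 and chr5:14332457-14332803 were 705 bp apart and came from a call of at least 1702 bp, which is wider than any single interval of the chromosome. The others spanned at least 1640 bp from 405723, 1307 bp from 18917673 and 935 bp from 30995242. One piece of the last, chr5:30995242-30995270, was 29 bp long, the second narrowest interval of the chromosome. The narrowest was chr5:131551029-131551044, 16 bp long at a fold of 3.90, and the next after these was chr5:73414261-73414290, 30 bp long at 3.66. Such widths are those left after the authors' intersection and filters, not the width of a called peak.

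**Figure D3:**
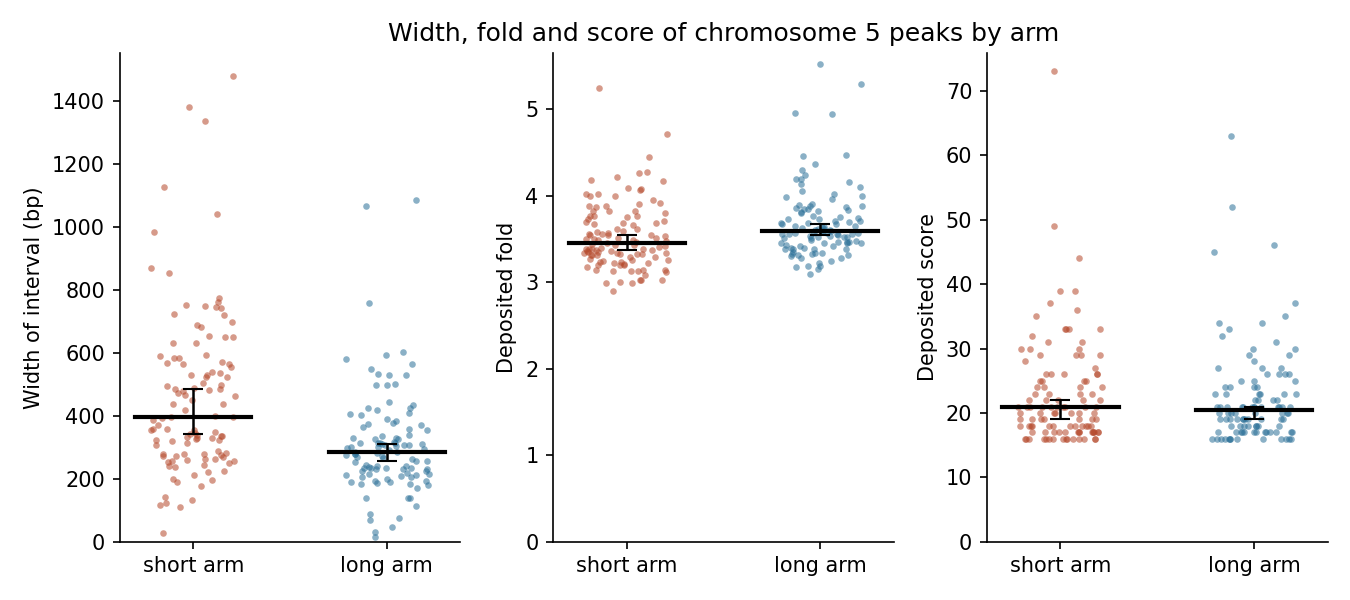
Width in bp, deposited fold and deposited score (vertical axes) of every interval by arm; each point is an interval, the thick line is the median and the bar its exact 95% interval from order statistics. Medians on the short and long arm were 395 and 285 bp, 3.45 and 3.60 fold, and scores of 21 and 20.5.

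Median folds were lower on the short arm, by a small margin. The deposited fold is the ANRIL signal over its local expectation, and the score is 10 times the −log10 q, rounded down. The median fold was 3.45 on the short arm (exact 95% interval 3.38 to 3.55) and 3.60 on the long arm (3.55 to 3.68), and these intervals just overlap. The difference of -0.15 has limits of -0.30 to 0.00059 from the ends of both intervals. Such limits are wider than a 95% interval of the difference, so they cannot decide whether it departs from 0. The median scores were 21 and 20.5. Folds under 3.3 made up 27.0% of the short arm (30 intervals) and 8.49% of the long arm (9 intervals). At equal score the long arm stayed higher, with medians of 3.39 against 3.25 at scores of 16 to 18 (34 and 41 intervals), 3.63 against 3.49 at 19 to 24 (46 and 37) and 4.12 against 3.91 at 25 or more (26 and 33). The share of intervals with a q-value above 0.01 was nearly equal, at 43.2% and 42.5%.

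**Figure D4:**
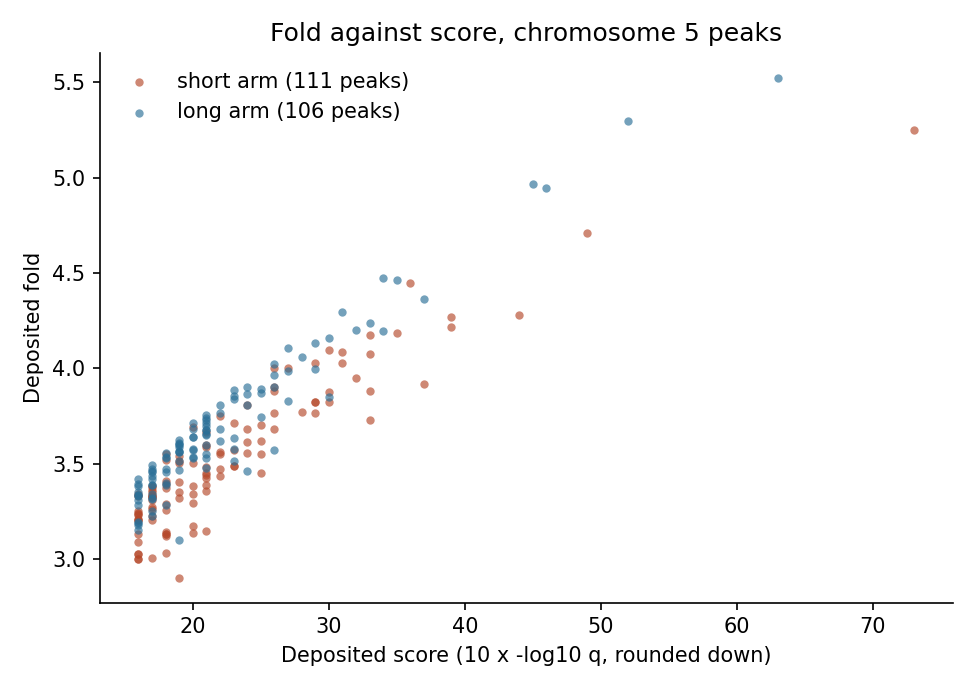
Deposited fold (vertical axis) against deposited score (horizontal axis) of the 217 intervals, coloured by arm. At a given score most points of the long arm lie above those of the short arm, as in the medians of 3.39 and 3.25 at scores of 16 to 18.

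A peak caller needs a smaller fold to reach the same q where its expected coverage is higher. Solving fold and p for that coverage, with the formulas that MACS2 normally uses, gave a median expected pileup of 2.78 on the short arm (exact 95% interval of the median 2.59 to 2.92) and 2.26 on the long arm (2.19 to 2.32). The lowest values were 2.11 and 2.08. Pileup here means reads or fragments over a position, after any scaling by the caller. These are estimates for a single position and not values of the authors, and they come from the same fold and p, so they restate the difference in fold at equal score on another scale. The part of coverage in the arm contrast was not tested.

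The highest scores were shared between the arms. The best of the chromosome was chr5:7214441-7215022 on the short arm, with a score of 73, a fold of 5.25 and the authors' q of 4.46e-08. The second, chr5:97406058-97406650 on the long arm, had a score of 63 at the highest fold of the chromosome, 5.52. The third and the sixth were neighbours on the long arm with consecutive peak numbers, 32402 and 32403. They were chr5:128159164-128159476 (score 52, fold 5.30) and chr5:128197480-128197773 (score 45, fold 4.96), and together they spanned 38.6 kb. Their widths of 313 and 294 bp were close to the median of 312 bp of long-arm intervals with scores of 25 or more. The fourth was chr5:37433646-37434117 on the short arm (score 49, fold 4.71), and the fifth chr5:113099631-113099847 on the long arm (score 46, fold 4.95, 217 bp).

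A tie for the last place decides how the highest scores divide: 5 of 10 lay on each arm with the tied interval of higher fold counted, and the other tied interval is on the short arm. Of the 5 highest folds, 4 lay on the long arm. The last of the 10 were chr5:14341396-14341984, already described within its run, chr5:44565583-44565977 (score 39, fold 4.27), chr5:38420412-38421280 (score 39, fold 4.22) and chr5:111097422-111097954 (score 37, fold 4.36), tied in score with chr5:18929024-18929593 on the short arm (fold 3.91). At the low end the 3 smallest folds were all on the short arm: 2.90 at chr5:21548037-21548530, and 2.998 at both chr5:38830622-38830739 and chr5:38478394-38478829. In the whole list 331 of 3227 intervals had a score of 34 or more, and on chromosome 5 it was 16 of 217, a lower share. This difference was not tested.

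The outermost intervals differed in strength. The first, with the lowest score found in the list, was chr5:100222-100577 (fold 3.24, score 16) and the last chr5:180693115-180693411 (fold 3.87, score 25). The last before 48 Mb was chr5:45181426-45181682 (fold 3.35, score 17) and the first after it chr5:50326631-50327036 (fold 3.52, score 23). No interval lay between them, so moving the split within that stretch changed only the lengths.

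Set beside the large autosomes with the most intervals, chromosome 5 matched chromosome 1 in mean density (1.199 and 1.188 per Mb). It lay under chromosome 6 (2.62 per Mb). The rest of the list outside chromosome 5 averaged 1.03 per Mb, with the 754 intervals of chromosome X included. The short arm alone, at 2.31 per Mb, was near chromosome 6. Median folds were 3.55 on chromosome 5, 3.55 on chromosome 1 and 3.45 on chromosome 6, the last equal to the 3.45 of the short arm. Median widths were 327, 342 and 362 bp, below the 395 bp of the short arm. The share of names in runs of 3 or more was 7.51% on chromosome 5 (14.95% on its short arm), 23.5% on chromosome 1 and 17.2% on chromosome 6. These values are descriptions, and no difference between chromosomes in fold, width or runs was tested.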

How the data were processed

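Libraries of 43 bp paired-end reads came from HEK293 chromatin. The build hg19 and the tools MACS2, Bowtie2, deepTools and bedtools are named in the submitters' processing notes, with versions and parameters not given in the sources used here. Per the deposited list's title, replicates were intersected, a score filter of 15 was used and blacklisted regions were treated. The authors deposited per peak a score (lowest 16), a fold ratio, a −log10 p-value and a −log10 q-value. The column identities were read from the values, since the score equalled 10 times the −log10 q, rounded down, in all 3227 intervals. Read depth at each peak is unknown.

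Intervals were placed by their midpoint, in hg19, counted from 1. Standard hg19 chromosome lengths, assembly gaps included, came from general knowledge. Shares and medians carry exact 95% intervals, which cover counting only. The peaks named are the 10 highest scores, 5 highest folds, 5 widest and 3 narrowest intervals, the outermost ones, those beside the split, the runs, the 3 largest gaps and split peaks. The 3 lowest folds and the short-arm gaps were added after their values were seen. The members, lists and tests were chosen with earlier results of these data known. Planned counts by gene context were not run, since no hg19 annotation was used here. A comparison of the arms per gene is not reported here. The chromosome test was checked on 100 simulated lists. Tests ran in scipy 1.17.1 with numpy 2.4.6 and pandas 2.3.3, and plots in matplotlib 3.10.9, under Python 3.11.15.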

Additional observations from a re-analysis of the deposited data

How the results depend on the processing

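The density ratio of the arms was 2.39 to 3.51 under 8 of 9 alternatives, within its counting interval; it was 4.31 in covered bases. Leaving out 5 Mb on either side of the split was added after seeing the data. The ratio of chromosome 5 to its length share was 1.12 for scores at or above the median (exact binomial test, adjusted p = 0.239). It was 1.14 with intervals within 10 kb joined (exact binomial test, adjusted p = 0.0552), 1.13 without chromosome Y and 0.980 for scores of 25 or more. Without chromosome X it was 1.43, the only alternative of the 5 to stay past the threshold. Chromosome X held 754 intervals, 4.66 times its length share, so leaving it out lowers the count expected on every other chromosome. The cause of the excess was not tested. The share of short-arm bins above every full long-arm bin was 9 of 10, and 80.0% with bins of 10 Mb, 66.7% with bins shifted by 2500 kb, 58.3% with bins of 2 Mb and 30.0% for scores at or above the median, where fewer intervals are counted. Runs numbered 5, and by construction 1 with gaps of at most 50 kb, 8 with gaps of at most 200 kb (7 on the short arm), 32 for groups of 2 or more and 1 for scores at or above the median. The ratio of called peaks was 2.41 with the split at 45 Mb, 2.18 at 50 Mb and 2.42 from names with scores of 25 or more, an added alternative. Differences in median fold, score and width kept their sign in every alternative run. No paired analysis was possible because each interval carries a single set of values with no replicate named, and for the same reason none could be dropped. Low peak counts cannot be told apart from low sensitivity, since library depth was not analysed here.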
